A study of Mus musculus with 6 samples.

Results

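The deposited table of sperm microRNAs (miRNAs) was examined for the entries with late catalogue numbers. These are the features whose every name carries a number of 4 or 5 digits directly after mmu-miR-, such as miR-1291, miR-5106 or miR-7210, on either arm of the precursor. The rule used names alone and took 264 of the 778 features, which leaves 514 features with earlier numbers or let-7 names. Mature sperm had been taken from the tail (cauda) of the epididymis, where sperm are stored, of male mice aged 8 weeks and labelled C57BL/6 (C57BL/6J in the protocol). Sperm of 3 samples came from normal mice and sperm of 3 samples from mice depressed after stress, called normal and stress samples here. The labels do not name the stress procedure, and do not say whether replicates are separate animals or pools, so the tests below see no more than the differences among these libraries, some of which may be technical. The comparison asks how far the small RNA load of sperm differs when the male is in a stress-induced depressed state.

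A miRNA is cut as a short RNA from a hairpin precursor and guides Argonaute proteins to messenger RNAs, largely through its seed, the bases 2 to 8 from its 5′ end. Catalogue numbers were given in the order of discovery, so high numbers come mostly from deep sequencing, and many such entries are low in abundance or little conserved. Several late entries lie inside other structured RNAs. Among these are small nucleolar RNAs (snoRNAs), which guide chemical modification of ribosomal RNA, and small Cajal body RNAs (scaRNAs), which do the same for spliceosomal RNAs. Another route is the mirtron, a hairpin that is a whole short intron or its end, so that splicing makes a cut that the Drosha enzyme makes elsewhere.

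The sequences below are some of the members with the most reads, or with a difference between the groups, as deposited. Capitals mark the seed. The sequences of miR-5106 and miR-1981-5p are given further on.
miR-3535: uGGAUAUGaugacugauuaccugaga
miR-5099: uUAGAUCGauguggugcucc
miR-1839-5p: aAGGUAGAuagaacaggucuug
miR-1198-5p: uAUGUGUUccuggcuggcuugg
miR-3473b: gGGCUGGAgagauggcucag
miR-3473e: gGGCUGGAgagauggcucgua
miR-1843a-5p: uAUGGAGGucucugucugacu
miR-1843b-5p: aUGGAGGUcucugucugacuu
miR-1291: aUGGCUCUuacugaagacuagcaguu
miR-3068-3p: gGUGAAUUgcaguacuccaaca
miR-7210-5p: uAACAUUGuagacaggcacaaag
miR-3473b and miR-3473e have the same seed. The 5p arms of miR-1843a and miR-1843b are the same run of letters read 1 base apart, which gives them different seeds and lets them share reads. Over all members there were 259 different seeds, and 4 of them occurred in more than 1 member. The seed of 16 members also occurred among the other 514 features, but that was so for 0 of the members with enough reads to be tested. Of the 264 members, 236 had a mature entry in the RefSeq table (build GRCm38.p6), and all 236 deposited sequences were identical to it.

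Most late entries were barely present. The median member had 4 reads over the 6 samples together, against 43.7 for the other features. In 105 members (39.8%) reads came from 1 sample only, against 69 (13.4%) of the others, and 56 members rested on 1 read. Only 42 members (15.9%) were read in all 6 samples, against 268 (52.1%) of the others. In total the members took 43281 of 8842190 miRNA reads. The miRNA table held 1010203 to 3067208 reads per sample, with normal replicate 3 the deepest. The number of members with at least 1 read was 105, 100 and 164 in normal replicates 1 to 3 and 106, 130 and 116 in stress replicates 1 to 3. Brought to the depth of the shallowest sample by calculation, the same numbers were 103, 95.0, 113, 105, 114 and 116.0, so the groups overlapped. Among the other 514 features the detected number at that depth was 329, 335 and 360.0 in normal and 388, 404 and 409.0 in stress samples, which did not overlap.

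**Figure D1:**
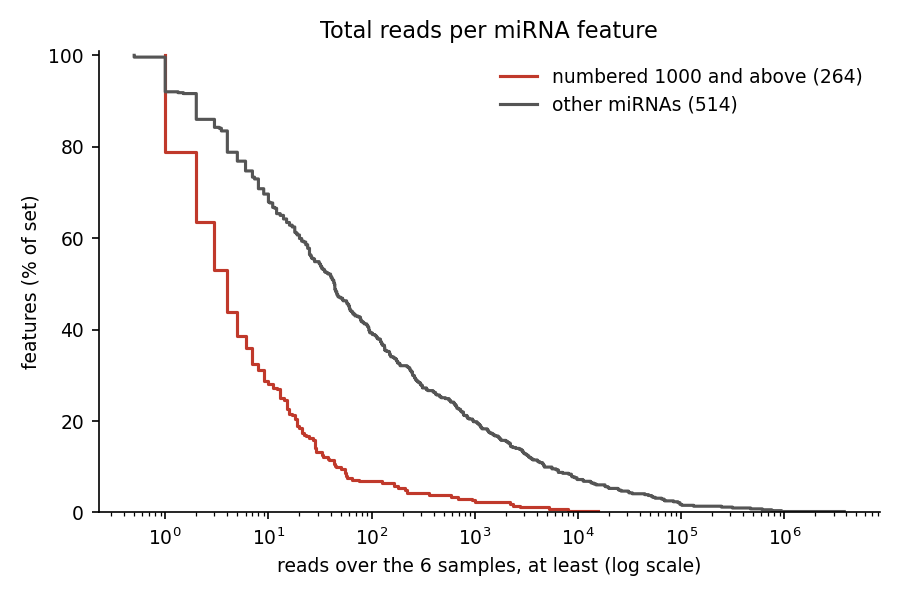
Share of features (vertical axis, percent of the set) with at least a given number of reads over the 6 samples (horizontal axis, log scale), for the 264 late-numbered miRNAs and the 514 other miRNAs. The late-numbered curve falls off at far fewer reads, with a median of 4 against 43.7 reads.

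The reads that there were came from few members. Pooled over the 6 samples, miR-3535 had 15803 reads, 36.5% of those of all 264 members, and the 10 members with the most reads had 91.2%. The pooled share of miR-3535 does not stand for each sample. The other 263 members held 92.1%, 71.4% and 88.3% of the members' reads in normal replicates 1 to 3 and 46.1%, 74.9% and 38.7% in stress replicates 1 to 3. By number, the 46 features numbered from 3000 held 20093 reads and the 56 features numbered from 1000 held 13731. The 71 features numbered from 7000 held 612 reads together, and the 56 features numbered from 6000 held 437.

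Part of this signal lay in members whose sequence is also part of a snoRNA or scaRNA. When each deposited sequence was searched in the GENCODE M21 transcripts (sense strand, exact, over its whole length, leaving out miRNA transcripts), 16 of 264 members (6.06%) were found in a snoRNA or scaRNA. Pooled over the 6 samples those 16 held 24222 reads, 55.96% of the members' reads. By sample they held 23.9%, 45.3% and 36.3% in normal replicates 1 to 3, less in each than the members with no match (69.2%, 46.6% and 54.4%). In stress replicates 1 to 3 they held 68.4%, 55.6% and 75.4%, so they were the majority in stress samples only. That majority rested on miR-3535. The other 15 held 16.0%, 16.7% and 24.6% of the members' reads in normal replicates 1 to 3. In stress replicates 1 to 3 those 15 held 14.5%, 30.5% and 14.1%, and the groups overlapped. Among the other 514 features 4 (0.778%) were found in such RNAs, the arms of miR-664 and miR-677, with 219 reads. Of the 2 tested, miR-677-5p, with 57 reads, was called higher in stress (log2 fold change 4.45, edgeR adjusted p = 0.0074). The other, miR-664-5p, with 133 reads, did not pass (0.31, edgeR adjusted p = 0.66). A match by sequence does not tell whether a read came from a miRNA precursor or from the longer RNA, and this was not tested. The next sequences are the matched RNAs of the 4 members described first, from 5′ to 3′ as GENCODE gives them, with the miRNA in capitals.
Gm24148, a snoRNA that holds miR-3535: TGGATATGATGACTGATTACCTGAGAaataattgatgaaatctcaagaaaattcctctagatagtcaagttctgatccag
Snora34, a snoRNA that holds miR-1291: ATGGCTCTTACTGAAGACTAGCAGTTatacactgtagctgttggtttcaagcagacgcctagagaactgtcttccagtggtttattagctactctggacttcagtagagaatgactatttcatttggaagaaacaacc
Mir1839, in its scaRNA transcript, that holds miR-1839-5p: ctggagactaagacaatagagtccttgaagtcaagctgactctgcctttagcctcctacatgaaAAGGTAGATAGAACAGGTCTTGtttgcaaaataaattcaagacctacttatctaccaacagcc
Mir3068, in its snoRNA transcript, that holds miR-3068-3p: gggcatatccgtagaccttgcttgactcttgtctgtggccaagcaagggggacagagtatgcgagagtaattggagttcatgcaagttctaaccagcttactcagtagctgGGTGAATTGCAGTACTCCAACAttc
miR-3535 is bases 1 to 26 of the 80 bases of Gm24148, and miR-1291 is bases 1 to 26 of the 138 bases of Snora34. RefSeq starts Snora34 further in, so that only 7 of the 26 bases of miR-1291 overlap its Snora34. By contrast, miR-1839-5p is bases 65 to 86 of 127, and miR-3068-3p is bases 112 to 133 of 136, next to the 3′ end. In the same way the 3p arms of miR-1843a and miR-1843b end 2 and 3 bases before the 3′ ends of the scaRNAs Scarna3b and Scarna3a. miR-3535 contains the letters UGAUGA, a form of the C box of the C/D class of snoRNAs. Those letters, searched on the given strand only, were in 5 of 264 members and 4 of the 514 others. miR-5121, also among the 5, is bases 3 to 23 of the 84 bases of Snord33. The remaining members found in such RNAs were miR-6516-5p, miR-6516-3p, miR-3084-5p, miR-3084-3p, miR-3069-3p, miR-3068-5p and miR-1839-3p, with 1 to 43 reads each, in Gm26083, Snora19 with its copy Gm23658, Scarna13, Mir3068 and Mir1839. miR-3535 and miR-1291 are long for miRNAs, as 11 of 264 members and 8 of the 514 others had at least 25 bases.

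The members inside snoRNAs and scaRNAs took a larger share of the miRNA reads in stress than in normal samples. Together the 16 took 0.0684%, 0.155% and 0.111% of each library's miRNA reads in normal replicates 1 to 3 and 0.586%, 0.253% and 0.828% in stress replicates 1 to 3. The groups did not overlap, and miR-3535 set much of the distance. Without miR-3535 the other 15 took 0.0594% ± 0.0148 (SD, n = 3) in normal and 0.139% ± 0.0155 in stress samples, 2.35-fold more. Most reads of these 15, 5273 of 8419, were those of miR-1839-5p. Its own change did not pass with TMM scaling (edgeR adjusted p = 0.23). Scaled to the miRNA total it was 1.28 and passed (edgeR adjusted p = 0.011), as 40.7% of all 236 tested miRNAs did in that direction. All 264 members took 0.311% ± 0.0284 in normal and 0.803% ± 0.324 in stress samples. The 187 members with no match in the other transcripts searched took 0.175% ± 0.0207 in normal and 0.201% ± 0.0335 in stress samples. There the groups overlapped. Of the 16039.5 reads of these 187, miR-5099 had 7925. Nuclear tRNAs and the precursor of the large ribosomal RNAs were not among the transcripts searched, so an origin in them was not tested. Shares are divided by the total miRNA reads, in which miR-148a-3p and the let-7 family weigh most; scaled in this way the median log2 fold change of all 236 tested miRNAs was 0.76. A sum over members chosen with earlier results known was not tested. Shares of some miRNAs that mark other cells were higher in stress samples too, while those of red blood cell and germ line markers overlapped. Epithelial markers (9 features, 8 of them read in every sample) took 1.24% to 1.75% in normal and 2.89% to 3.20% in stress samples, stromal and endothelial markers (8 features, 7 in every sample) 0.266% to 0.495% and 0.927% to 1.08%, and leukocyte markers (8 features, 4 in every sample) 0.0360% to 0.0814% and 0.136% to 0.189%. Red blood cell markers (6 features, 3 in every sample) took 0.0341% to 0.102% and 0.0268% to 0.0818%, and male germ line markers (18 features, 16 of them read in every sample) 0.643% to 0.843% and 0.672% to 0.822%. The part of these cells in the snoRNA shares was not tested. A change in the number of cells of a type and a change in RNA per cell cannot be told apart in such samples.

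**Figure D2:**
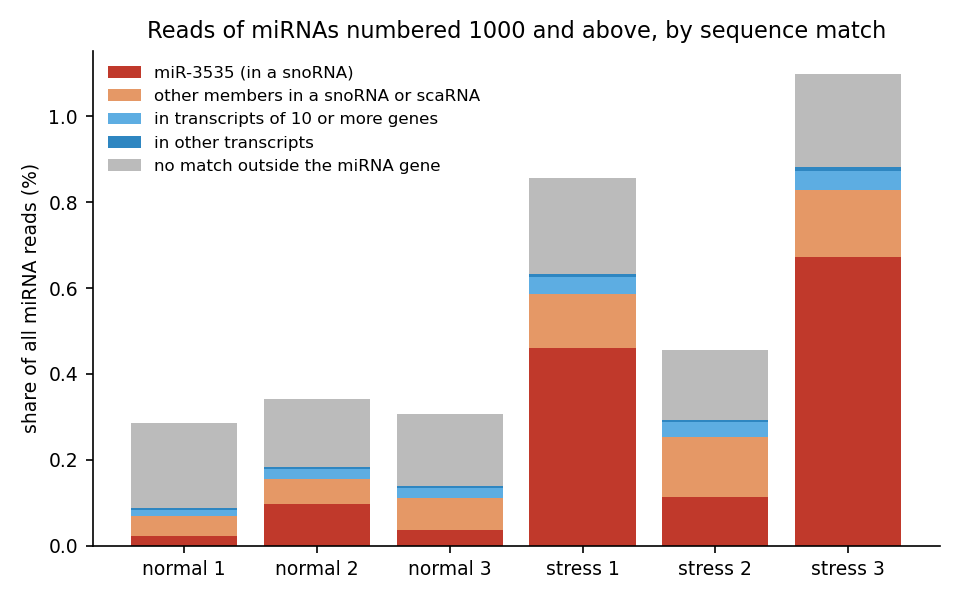
Share of all miRNA reads (percent, stacked bars from 0) taken by the late-numbered miRNAs in each of the 3 normal and 3 stress samples, split by where else the sequence occurs. The parts found in snoRNAs or scaRNAs sum to 0.0684% to 0.155% in normal and 0.253% to 0.828% in stress samples. The part without a match in the other transcripts searched overlaps between the groups.

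For the test, the expected counts of the whole table were rounded and fitted with edgeR (quasi-likelihood, TMM scaling, stress minus normal). The filter on low counts kept features with enough reads in at least 3 samples. That left 19 of the 264 members (7.20%) and 217 of the 514 others (42.2%), so 245 members were not tested. The 2 members kept with the lowest level were miR-6238 and miR-5106, at a mean of 13.5 and 9.71 CPM (the standard rate of reads per library, TMM-scaled), and the 2 left out with the highest were miR-7240-5p and miR-3057-5p, at 7.52 and 7.38. Of the 19 tested members, 1 was called higher and 2 lower in stress at an adjusted p under 0.05, which is 15.8% against 12.7% of all 236 tested miRNAs. Higher calls alone were 2.54% and lower calls 10.2% of all 236. The members' share is near this background. Their median log2 fold change was −0.25, against 0.00 for all 236. TMM-scaled values of the groups did not overlap for 11 of the 19, 4 higher and 7 lower in stress (39.4% of all 236 did not overlap).

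**Figure D3:**
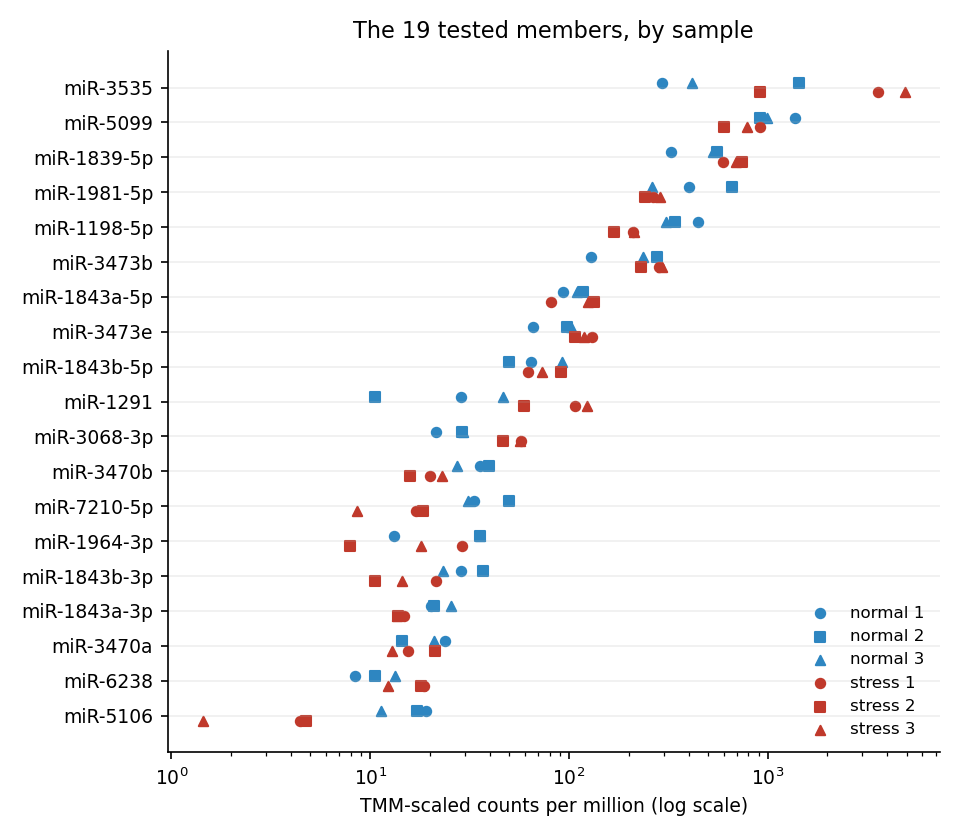
TMM-scaled CPM (log axis) of the 19 tested late-numbered miRNAs in each sample, blue for normal and red for stress, with the marker shape giving the replicate. miR-3535 spans 293 to 4891 CPM, with stress replicate 2 below normal replicate 2, while miR-1291 is higher and miR-5106 and miR-7210-5p are lower in every stress sample than in every normal sample.

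miR-1291, at the 5′ end of Snora34 in an intron of Kansl2 (GRCm38.p6, chromosome 15, 98519828 to 98519853), was the member called higher. It stood at 28.7, 10.5 and 46.7 CPM in normal replicates 1 to 3 and at 107, 59.7 and 123 CPM in stress replicates 1 to 3. All stress samples lay above all normal samples. The log2 fold change was 1.68 ± 0.47 (SE, edgeR adjusted p = 0.039), and the call did not survive the omission of normal replicate 1, of normal replicate 2 or of stress replicate 3 (adjusted p = 0.11, 0.071 and 0.088). Omitting normal replicate 3 gave 2.31 (adjusted p = 0.011). It was 2.39 scaled to the miRNA total (adjusted p = 0.0096) and 1.61 scaled to the total of the 3 deposited small RNA tables (adjusted p = 0.34).

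miR-3535, at the 5′ end of Gm24148 in an intron of the nucleolin gene Ncl (chromosome 1, 86352062 to 86352087), was the member with the most reads when all 6 samples were pooled. In normal samples miR-5099 was higher on average, at a mean of 1093 CPM against 714 CPM for miR-3535. In normal replicate 2, however, miR-5099 was at 917 CPM and miR-3535 at 1434 CPM. The level of miR-3535 was 293, 1434 and 416 CPM in normal and 3581, 920 and 4891 CPM in stress samples. Normal replicate 2 lay above stress replicate 2, so the groups overlapped. The log2 fold change of 2.13 ± 0.66 did not pass in edgeR (adjusted p = 0.051), but it passed without normal replicate 2 (3.16, adjusted p = 0.030) and without stress replicate 1 or 2 (adjusted p = 0.026 and 0.017). Omitting normal replicate 1, normal replicate 3 or stress replicate 3 left it short (adjusted p = 0.19, 0.10 and 0.095). With the miRNA total as library size it passed as well (2.999, adjusted p = 0.0096), and there every stress sample lay above every normal sample. It passed too with RLE scaling (adjusted p = 0.041) and with the total of the 3 tables (adjusted p = 0.0045), and it missed in DESeq2 (adjusted p = 0.058). In edgeR it also missed with the replicate block (adjusted p = 0.14), a minimum count of 5 (adjusted p = 0.061) and unrounded counts (adjusted p = 0.052). With no filter on low counts edgeR gave 2.19 ± 0.29 (adjusted p = 6.81e-12). The samples were the same, so that smaller SE reflects the fit with low features kept and not a smaller spread among samples. The reads behind the CPM values of miR-3535 were 245, 1090 and 1098 in normal and 4828, 1740 and 6802 in stress samples.

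miR-3068-3p, in the snoRNA transcript of Mir3068 within the noncoding gene Gm29362 (chromosome 12, 87437685 to 87437706), stood at 21.5, 28.9 and 29.2 CPM in normal and 57.1, 46.5 and 56.8 CPM in stress samples. The groups did not overlap, but the log2 fold change of 0.996 ± 0.30 stayed just short in edgeR (adjusted p = 0.0502). This call turned on small choices. It passed in edgeR with RLE scaling (adjusted p = 0.041), with unrounded counts (adjusted p = 0.049), with the miRNA total as library size (adjusted p = 0.0072) and on omission of normal replicate 3 (adjusted p = 0.046), and in DESeq2 (adjusted p = 0.045). These were 5 of 14 alternatives. In edgeR it missed with the total of the 3 tables (adjusted p = 0.65), no filter (0.13), the replicate block (0.085) and a minimum count of 5 (0.053). It also missed on omission of any other single sample (edgeR adjusted p = 0.0655 to 0.16). miR-1839-5p, in the scaRNA transcript of Mir1839 (chromosome 7, 81529919 to 81529940), went from 326, 558 and 532 CPM to 593, 745 and 692 CPM. All stress samples were above all normal samples by a narrow margin, and with TMM scaling the change of 0.52 ± 0.29 did not pass (edgeR adjusted p = 0.23).

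The miR-1843 pair, which lies in Scarna3a (miR-1843b, chromosome 1, 159340362 to 159340382 for the 5p arm, in an intron of Cop1) and Scarna3b (miR-1843a, chromosome 12, 80391654 to 80391674), was read on both arms. The 5p arms overlapped between groups, at 107 ± 12.8 and 113 ± 27.8 CPM (SD, n = 3) for miR-1843a-5p and 69.0 ± 21.6 and 75.5 ± 14.4 CPM for miR-1843b-5p in normal and stress samples. Their log2 fold changes were 0.08 ± 0.28 and 0.11 ± 0.31. The 3p arms were at 22.3 ± 2.76 and 14.1 ± 0.656 CPM for miR-1843a-3p and at 29.5 ± 6.88 and 15.5 ± 5.55 CPM for miR-1843b-3p. Both 3p arms were lower in every stress sample than in every normal sample, and neither passed (−0.68 ± 0.34 and −0.92 ± 0.39, edgeR adjusted p = 0.19 and 0.13). The difference between arms was not tested. Many of these values were fractions, as 11 of 264 members had fractional reads in some sample, against 122 of the 514 others, so single values of the pair are uncertain. In reads, the 5p arm exceeded the 3p arm by 6.04-fold for miR-1843a, 3.83-fold for miR-1843b and 229-fold for miR-1839, while for miR-3068 the 3p arm led with 361 reads against 43.

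Counting all 8 tested members found in snoRNAs or scaRNAs, 1 was called higher and 0 lower, 6 of 8 had positive values, and the median log2 fold change was 0.32. The other tested members had 8 without a match in the other transcripts searched (median −0.70, 0 higher and 2 lower). They also had 3 found in transcripts of many genes (median −0.25, 0 higher and 0 lower). Scaled to the miRNA total instead, 5 of the 8 were called higher (40.7% of all 236 were) and their median was 1.06, against 0.76 for all 236. The same scaling called 8 of the 19 members higher and 0 lower (4.24% of all 236 were lower).

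**Figure D4:**
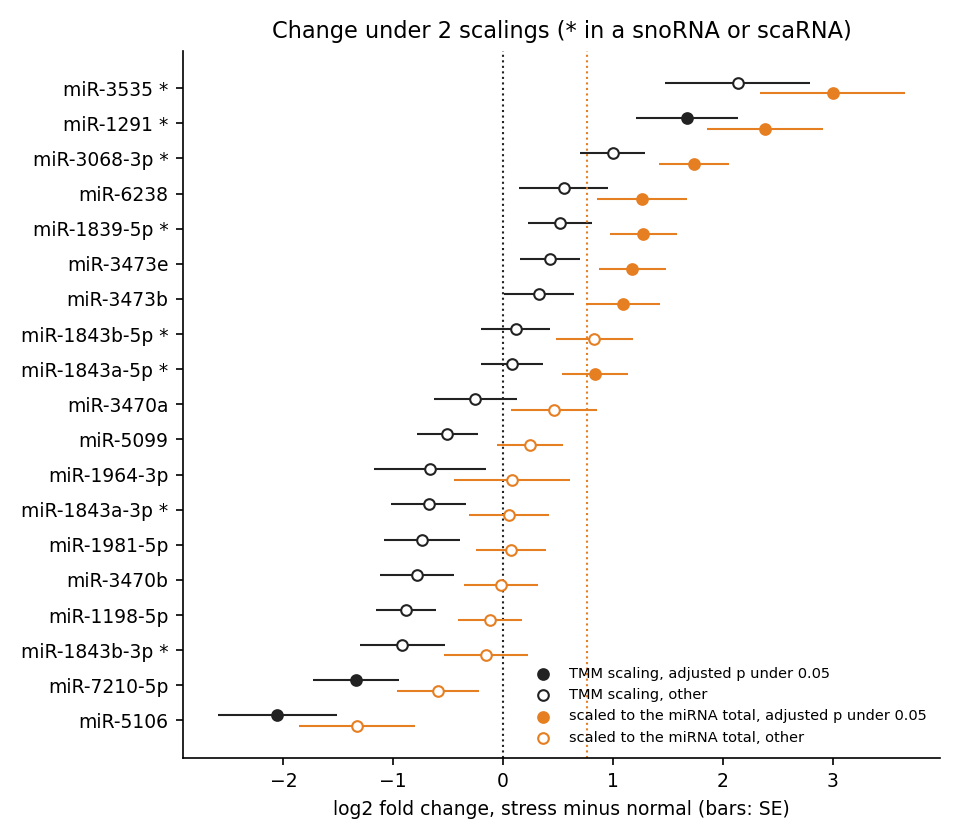
Log2 fold change, stress minus normal, with its SE for the 19 tested late-numbered miRNAs under TMM scaling (black) and scaled to the miRNA total (orange); filled points have an adjusted p under 0.05, stars mark members found in a snoRNA or scaRNA, and dotted lines are the medians of all 236 tested miRNAs (0.00 and 0.76). The 3 highest members are starred, and miR-5106 and miR-7210-5p are lowest under both scalings.

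Both members called lower lie outside snoRNAs. miR-5106 stood at 19.1, 17.1 and 11.4 CPM in normal and 4.45, 4.76 and 1.44 CPM in stress samples, from 16, 13 and 30 reads and 6, 9 and 2 reads. Every stress sample was below every normal sample, with few reads behind each value. The log2 fold change was −2.06 ± 0.54 (edgeR adjusted p = 0.031). The call held without normal replicate 3 and was lost without any other single sample (adjusted p = 0.053 to 0.14). Divided by the miRNA total it was −1.33 (adjusted p = 0.059) and to the total of the 3 tables −1.69 (adjusted p = 0.48).
The sequence of miR-5106 is shown because it holds letters that also occur in tRNA genes, given in capitals.
miR-5106: aggucugUAGCUCAGUUGGcaga
The A box of tRNA genes, the inner promoter near their 5′ end, was searched as UNGCNNAGNNGG on the given strand of the RefSeq hairpins. Hairpins of 2 of 218 members (miR-5106 and miR-1964-3p) and of 1 of 388 other features held it, and in miR-5106 it lay in the mature sequence. The B box, searched as GUUCGANUCC, was in the hairpin of 1 member, miR-5100, and in 0 of the others. By position, miR-1983 overlapped a RefSeq tRNA gene, n-TItat14, over 13 of its 21 bases, and it had 8 reads. Nuclear tRNA sequences were not used here.

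miR-7210-5p (chromosome 14, 24088877 to 24088899, outside annotated genes on its strand) stood at 33.5, 49.98 and 31.1 CPM in normal and 17.1, 18.5 and 8.63 CPM in stress samples. The groups did not overlap, and the log2 fold change was −1.34 ± 0.39 (edgeR adjusted p = 0.044). Leaving out any single sample other than normal replicate 3 ended the call (adjusted p = 0.058 to 0.16), as did the miRNA total as library size (−0.59, adjusted p = 0.21), the total of the 3 tables (−0.96, adjusted p = 0.76), a minimum count of 5 (adjusted p = 0.061) and the replicate block (adjusted p = 0.054). miR-1198-5p, in an intron of Gripap1 (chromosome X, 7807142 to 7807163), was next, at 447, 341 and 306 CPM in normal and 210, 168 and 214 CPM in stress samples. With TMM scaling it was lower in every stress sample than in every normal sample and did not pass (−0.89 ± 0.27, edgeR adjusted p = 0.051). It passed without normal replicate 3 (−0.97, adjusted p = 0.040) and in DESeq2 (−0.86, adjusted p = 0.042), which were 2 of 14 alternatives. Scaled to the miRNA total the change was −0.12 (edgeR adjusted p = 0.76) and the groups overlapped. With the total of the 3 tables it was −0.60 (edgeR adjusted p = 0.84).

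miR-5099, the second most read member over the 6 samples pooled, had no match in any other GENCODE transcript; GENCODE places its gene on chromosome 12 (36816205 to 36816278). It stood at 1371, 917 and 990 CPM in normal and 916, 605 and 785 CPM in stress samples. Normal replicate 2 and stress replicate 1 were nearly equal, and the change of −0.51 ± 0.28 did not pass (adjusted p = 0.23).

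Members of a further kind begin or end at the edge of an intron. Of the 236 members with a RefSeq position, 39 (16.5%) started within 2 bases of a 5′ splice site or ended within 2 bases of a 3′ splice site on the same strand, against 5 of 415 other features (1.20%). At the 5′ edge were 7, and all 7 began with GU, the first letters of most introns. At the 3′ edge were 32, of which 26 ended in AG, the last letters of most introns. These lines show the 3 edge members described next, with those letters in capitals.
miR-1981-5p: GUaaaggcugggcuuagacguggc
miR-7043-3p: acugugccucucuguuuucAG
miR-6988-3p: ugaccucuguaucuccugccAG
miR-1981-5p, from the first base of an intron of Marc2 (chromosome 1, 184822465 to 184822488), had 2740 of the 2977 reads of all 39. It was the only one of them with enough reads for the test, at 441 ± 201 CPM (SD, n = 3) in normal and 264 ± 22.7 CPM in stress samples. The groups overlapped and the change of −0.74 ± 0.34 did not pass (adjusted p = 0.16). Its partner miR-1981-3p had 51 reads. miR-7043-3p ends at the last base of an intron of Rassf4 and had 55 reads, and miR-6988-3p, in an intron of Syvn1, had 19. The median edge member had 2 reads over all 6 samples. Together the 39 made up 0.0356% ± 0.0114 of all reads of the table in normal and 0.0370% ± 0.0047 in stress samples.

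A few members occur in transcripts of very many genes, as copies of a dispersed repeat do. miR-3473b was found in transcripts of 343 genes and miR-3470b in those of 546, while miR-3473e was found in none besides its own. In all, 5 members were in transcripts of 10 or more genes, with 2567.5 reads. miR-3473b stood at 129, 279 and 237 CPM in normal and 284, 230.4 and 293 CPM in stress samples, with the groups overlapping (0.32 ± 0.32, adjusted p = 0.52). miR-3473e was at 88.4 ± 19.7 and 119 ± 11.7 CPM (SD, n = 3) in normal and stress samples, without overlap (edgeR 0.43 ± 0.27, adjusted p = 0.29). miR-3470b was at 34.2 ± 6.24 and 19.6 ± 3.59 CPM, also without overlap (edgeR −0.78 ± 0.33, adjusted p = 0.13). Scaled to the miRNA total the change of miR-3470b was −0.019 (edgeR adjusted p = 0.96), and the groups overlapped. Coding transcripts held 27 members and other noncoding transcripts 29, with 216 and 236 reads; miR-1306, inside a transcript of Dgcr8, whose protein works with Drosha, had 15 reads on its 5p and 18 on its 3p arm. No member outside the snoRNA, scaRNA and many-gene classes matched an annotated ribosomal RNA with up to 1 mismatch, within the transcripts searched. Those classes were assigned first, so ribosomal matches within them were not counted. The precursor of the large ribosomal RNAs was not used here.

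Lists drawn from what is known of these entries were counted as well. Of 3 tRNA-related numbers 2 were present, with 13 reads, and of 11 numbers related to ribosomal RNA 4 were present, with 107 reads (miR-6240, miR-3968, miR-3963 and miR-5126); 0 of either were tested. The snoRNA list (miR-1839, miR-1291 and miR-3068) had 5 features, all 5 found in a snoRNA or scaRNA, and 1 of 3 tested was higher. The mirtron list had 7 features, of which 4 lay at an intron edge, and 0 of 1 tested passed. The repeat list had 9 features, of which 4 occurred in many genes, and 0 of 4 tested passed. The list of late-numbered members of the imprinted Dlk1-Dio3 cluster had 2 features with 5 reads. The conserved list had 12 features with 2156 reads, of which the 4 tested, the miR-1843 arms, did not pass.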

How the data were processed

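The authors deposited 1 table each for miRNAs, PIWI-interacting RNAs and tRNA-derived small RNAs; Bowtie is the tool named, per the submitters' processing notes. Its version, the build, any filter on reads and how reads were counted are not stated there or in the labels. The deposited miRNA table holds expected counts per mature sequence, 91.99% of them whole within 0.001. The other tables hold RPM, scaled by the authors to their own totals, and served only for a 3-table library size, in which reads of the tRNA table are an estimate. RNA was taken with TRIzol and libraries built with a TruSeq kit, per the labels' protocols.

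Expected counts were rounded and all 778 features fitted with edgeR 4.0.16 in R 4.3.3 (filterByExpr, minimum count 10, TMM, glmQLFTest, two-sided, Benjamini-Hochberg over 236 features, threshold 0.05). SE is the size of the log2 fold change over the square root of F. The code was tested on simulated data. Members and lists were chosen with earlier results of these data known. Named members were those called, the 12 highest, those with an unadjusted p under 0.05 (8 of 19; 32.2% of all 236), up to 10 read in every sample and lying in another RNA, and those next to the filter; others were chosen after their values were seen. Alternatives were RLE and total scalings, DESeq2 1.42.0, other filters, unrounded values, a replicate block and leaving out each sample. Sequences and positions come from RefSeq (GRCm38.p6) and GENCODE M21 (GRCm38), which may not be the authors' build.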

Additional observations from a re-analysis of the deposited data

How the results depend on the processing

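Counts of late-numbered miRNAs called rested on thin margins. Higher calls numbered 1 as reported, 3 with RLE scaling, 8 scaled to the miRNA total, and 2 with DESeq2, with no filter on low counts or with unrounded values. Leaving out 1 sample gave 0 to 2. Lower calls numbered 2, and 0 scaled to the miRNA total or to the total of the 3 tables, 1 with a minimum count of 5, 1 with the replicate block (both lost miR-7210-5p) and 3 with DESeq2 (which added miR-1198-5p). Leaving out 1 sample gave 0 to 4, with 4 without normal replicate 3 and 0 without any other sample; higher calls were 0 without normal replicate 1 or stress replicate 3. Same-numbered samples deviated with r = 0.11, −0.21 and 0.12, so the replicate block rests on numbers alone. The block moved calls of all miRNAs from 6 higher and 24 lower to 7 and 21. Calls of all miRNAs moved in other settings too. They were 16 higher and 28 lower with RLE scaling, 96 and 10 scaled to the miRNA total, and 17 and 30 with DESeq2. The total of the 3 tables gave 3 and 3, unrounded values 7 and 24, and no filter 19 and 30 of 775. A minimum count of 5 gave 7 and 19 of 299. With 1 sample left out they were 4 to 22 higher and 13 to 33 lower, the most without normal replicate 3. Scaled to the miRNA total, miR-5099 turned to 0.25, miR-1981-5p to 0.072 and miR-1843a-3p to 0.052. miR-1843a-5p turned to −0.024 without normal replicate 1 and −0.043 without stress replicate 2, and miR-1843b-5p to −0.049 without normal replicate 2 and −0.040 without stress replicate 2. Over all single samples left out these ranged from −0.043 to 0.30 and from −0.049 to 0.43. The cause was not tested. Of the other changes for named members, 191 kept direction and side, 20 gained and 20 lost a call. The members' mean share went from 0.311% and 0.803% to 1.19% and 2.05% with miR-148a-3p and let-7 left out of the total, to 0.259% and 0.387% without miR-3535, and to 0.175% and 0.201% without members lying in another RNA; leaving out 1 sample gave 0.296% to 0.324% and 0.656% to 0.977%. The mean number detected fell from 123.0 and 117 to 65.7 and 60.3 at 3 reads or more, and 25 and 24.7 at 10 or more. Matches with up to 1 mismatch numbered 86 rather than 77.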
